A study of Mus musculus with 23 samples.

Results

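Very long genes, which are transcribed over far longer stretches of DNA than most, were followed in mouse liver after repeated oral dosing with 1-methoxy-3-indolylmethyl alcohol (1-MIM-OH), a product of a plant glucosinolate. The set holds 41 listed genes of about 200 kb or more. Of these, 39 were measured, among 18193 genes with a probe set of their own on the array, each by the brightest probe set paired with that gene alone, and Immp2l and Magi2 were not analysed here. The 39 spans ran from 289 kb for Atg10 to 2390 kb for Dmd, with a median of 566 kb (RefSeq, GRCm38.p6), against a median of 20.3 kb over the 18032 genes with a span, so no member lies near the 200 kb limit. The list was drawn up partly from these same arrays. Fras1, Gmds, Pard3b, Arhgap6, Tmtc2, Erc2, Atg10 and Trhde are treated here as taken for their fall: their falls are described and carry no test. The other 31 members carry the test, although whether Ncam2 and Smyd3 were also listed because they fell is not recorded.

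All animals were male FVB/N-SULT1A1/2 mice, hemizygous for the human sulfotransferase genes SULT1A1 and SULT1A2, with an age label of 5 weeks in every group; the labels do not say whether that is the age at the first dose. Treated mice received 1-MIM-OH by mouth at 26 mg/kg, 3 times per week, as 10 treatments over 21 d or 40 treatments over 90 d, and control mice were given glyceryl trioctanoate, the vehicle, for as long. Livers were taken 24 h after the last dose. There were 6 vehicle and 5 treated mice at 21 d and 6 of each at 90 d, with 1 array per mouse; a further treated array at 21 d was excluded by the submitters for hybridisation artefacts. Values are log2 signals of 3′ expression arrays, so differences between groups are log2 fold changes, and levels of different probe sets cannot be ranked against each other.

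RNA polymerase II moves through a gene at a limited speed, so a single pass through a very long gene can take hours. A DNA adduct in the transcribed strand can stall the polymerase, and the chance that a transcript meets one grows with the length of the gene. Sulfotransferases turn 1-MIM-OH into a reactive ester that binds DNA, and liver is a main site of this step. Many very long genes are best known from brain and muscle, but several are strongly expressed in liver, such as Dpyd, the first enzyme of pyrimidine breakdown, and Zbtb20, a transcription factor of hepatocytes.

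For 4 members whose values the results turn on, 300 bases around the annotated start are given below to show how these genes begin. Capitals mark every CG, the dinucleotide at which mammalian DNA is methylated, which reads the same on both strands. RefSeq (GRCm38.p6) places them at chr13:32338495-32338794 on the minus strand (Gmds), chr1:61638574-61638873 on the plus strand (Pard3b), chr16:81200447-81200746 on the plus strand (Ncam2) and chr6:33248878-33249177 on the plus strand (Exoc4).
Gmds: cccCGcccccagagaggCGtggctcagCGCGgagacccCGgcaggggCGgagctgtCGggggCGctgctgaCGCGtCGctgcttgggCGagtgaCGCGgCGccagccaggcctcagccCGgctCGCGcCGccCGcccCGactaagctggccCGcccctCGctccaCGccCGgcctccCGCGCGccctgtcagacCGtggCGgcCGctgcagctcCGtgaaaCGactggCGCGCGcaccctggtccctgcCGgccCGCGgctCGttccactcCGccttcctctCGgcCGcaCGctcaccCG
Pard3b: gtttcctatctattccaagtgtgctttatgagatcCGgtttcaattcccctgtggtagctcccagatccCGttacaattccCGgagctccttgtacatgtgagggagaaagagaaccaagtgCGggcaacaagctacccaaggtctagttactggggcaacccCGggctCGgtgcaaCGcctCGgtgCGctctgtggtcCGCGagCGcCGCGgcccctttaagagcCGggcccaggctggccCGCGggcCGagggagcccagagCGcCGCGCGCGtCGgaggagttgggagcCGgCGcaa
Ncam2: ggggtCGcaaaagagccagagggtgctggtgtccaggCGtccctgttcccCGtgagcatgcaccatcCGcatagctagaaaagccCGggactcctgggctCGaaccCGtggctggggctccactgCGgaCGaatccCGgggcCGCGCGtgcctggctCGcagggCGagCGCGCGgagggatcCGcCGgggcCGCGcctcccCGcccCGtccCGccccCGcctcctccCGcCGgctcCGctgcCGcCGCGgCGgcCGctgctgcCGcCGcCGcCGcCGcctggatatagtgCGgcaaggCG
Exoc4: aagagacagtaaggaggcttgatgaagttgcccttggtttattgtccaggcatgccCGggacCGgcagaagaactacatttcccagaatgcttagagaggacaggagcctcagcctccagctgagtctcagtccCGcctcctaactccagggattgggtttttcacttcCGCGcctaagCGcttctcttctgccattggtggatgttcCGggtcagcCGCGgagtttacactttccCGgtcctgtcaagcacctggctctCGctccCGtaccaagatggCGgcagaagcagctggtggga
The window of Gmds held 45 CG, that of Ncam2 41, that of Pard3b 26 and that of Exoc4 13. Among 32851 promoters of 27025 genes the median was 7 CG, and 5.43% held none. At least as many CG as in Gmds stood in 1.93% of these windows, as in Ncam2 in 3.46%, as in Pard3b in 16.9% and as in Exoc4 in 37.9%. The 54 promoters matched to 33 members had a median of 14 CG and none was without one.

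The members taken for their fall had lower mean signals in treated livers at both times, from 0.17 to 0.98 lower at 21 d and from 0.36 to 1.21 lower at 90 d on the log2 scale. Their median change was -0.86 at 21 d and -0.85 at 90 d, beside -0.02 and 0.02 over all genes. Passing here means an adjusted p under 0.05 in limma with Benjamini-Hochberg adjustment over 45037 probe sets. At 21 d, 0.594% of all genes passed as lower and 0.577% as higher, and at 90 d 0.247% and 0.5%; since the values chose these 8 members, nothing is read from their own count. Every treated array lay below every vehicle array for 3 of the 8 at 21 d and for 3 at 90 d, while 1.28% and 0.385% of all genes were separated in that direction and 1.53% and 0.967% in the opposite one.

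**Figure D1:**
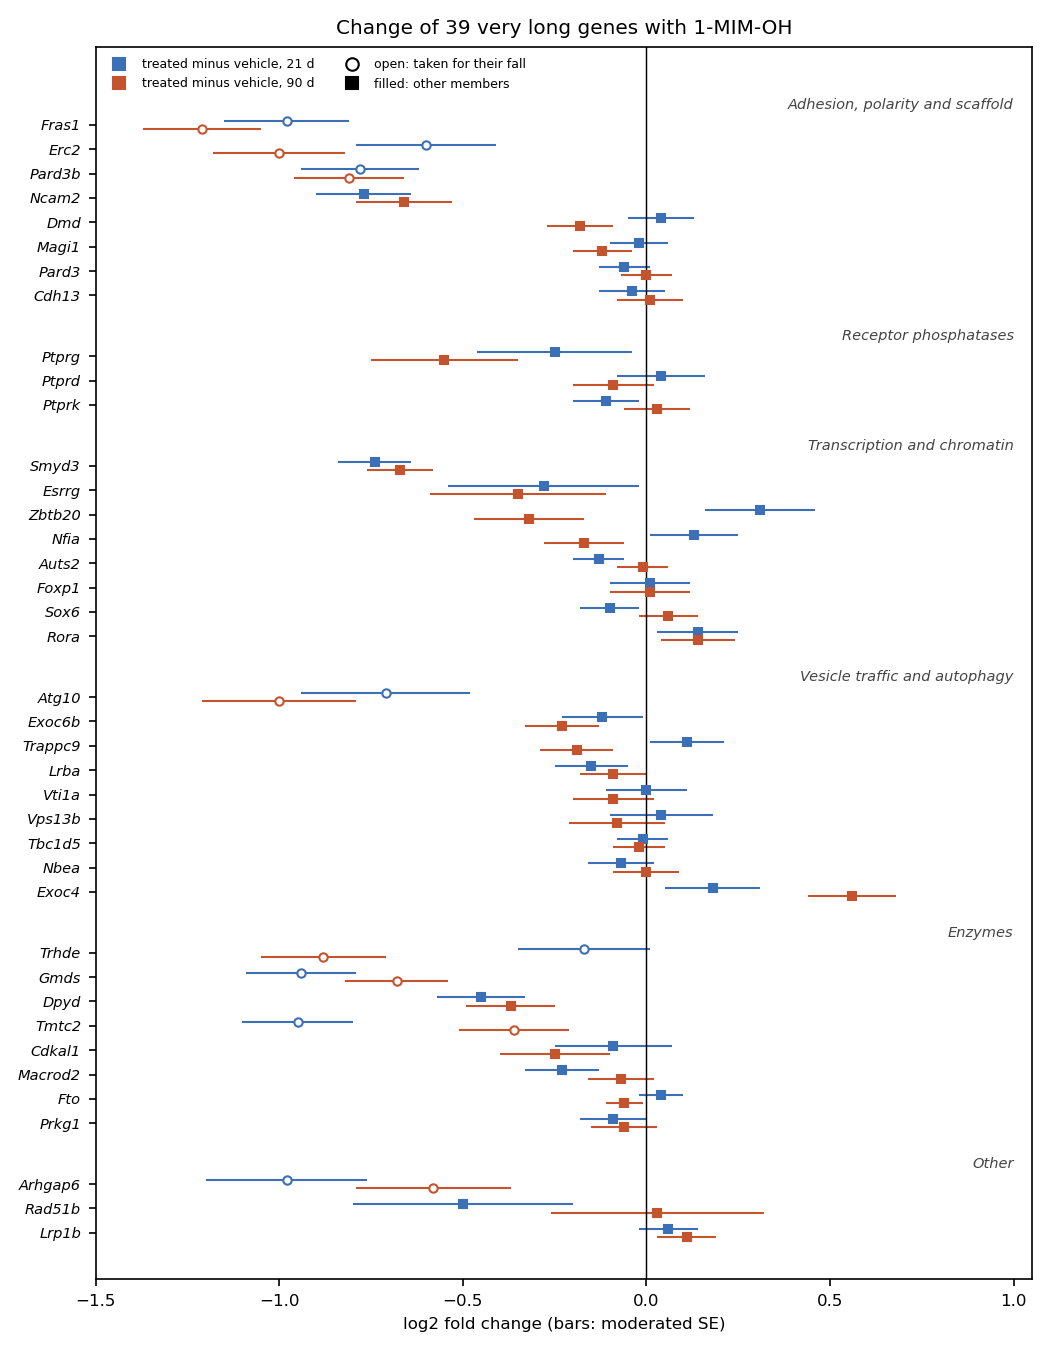
Log2 fold change of the 39 measured members, treated minus vehicle, at 21 d (blue) and 90 d (orange), grouped by role; bars are the moderated standard error, open circles the 8 members taken for their fall and filled squares the other 31. Most filled squares lie near 0, with Ncam2 and Smyd3 far to the left at both times and Exoc4 to the right at 90 d.

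Fras1, an extracellular protein of basement membranes that spans 411 kb, had the largest difference of the 39 members at 90 d. At 21 d the vehicle arrays ran from 6.13 through a median of 6.51 to 6.95, and the treated arrays read 5.82, 5.12, 5.43, 5.61 and 5.82. Vehicle arrays of 90 d ran from 6.39 through 6.52 to 7.12 and the treated arrays from 5.06 through 5.39 to 5.90. No treated liver reached the lowest vehicle liver at either time. The differences were -0.98 ± 0.17 (SE) at 21 d and -1.21 ± 0.16 at 90 d, or 2.32-fold lower at 90 d. A second probe set of Fras1, with a mean level of 3.56, did not move that way, and averaging both gave -0.42 and -0.54.

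Gmds, the enzyme that starts GDP-fucose synthesis, spans 519 kb. Its vehicle arrays at 21 d ran from 4.96 through 5.24 to 5.67, and the treated arrays read 4.09, 4.35, 4.61, 4.46 and 4.37. The vehicle arrays of 90 d ran from 4.83 through 5.22 to 5.53 and the treated arrays from 4.10 through 4.46 to 4.94. The groups were apart at 21 d, and at 90 d 5 of 6 treated livers lay below all vehicle livers. Its changes were -0.94 ± 0.15 and -0.68 ± 0.14, and the mean of both probe sets was -0.61 at 21 d.

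Pard3b, a relative of the cell polarity protein Pard3, spans 1004 kb and is the longest of the 8. At 21 d the vehicle arrays ran from 6.54 through 6.87 to 7.04, and the treated arrays read 6.63, 5.56, 5.84, 6.18 and 6.05. At 90 d the vehicle arrays ran from 6.50 through 6.78 to 6.97 and the treated arrays from 5.69 through 5.82 to 6.54. One treated liver at each time, replicate 1 at 21 d and replicate 6 at 90 d, reached into the vehicle range. The change was -0.78 ± 0.16 at 21 d and -0.81 ± 0.15 at 90 d, and the mean of its 3 probe sets gave -0.44 at 90 d. Pard3 itself, which spans 549 kb, differed by -0.06 ± 0.07 and -0.00 ± 0.07 (adjusted p = 0.754 and 0.99, limma).

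Erc2, known as a scaffold of presynaptic release sites, spans 856 kb. Its vehicle arrays at 21 d ran from 5.31 through 5.42 to 5.66, and the treated arrays read 5.45, 4.47, 4.73, 4.92 and 4.74. Vehicle arrays of 90 d ran from 5.24 through 5.58 to 5.89 and the treated arrays from 3.70 through 4.62 to 5.14. The 90 d groups were apart, with replicate 1 lowest, and at 21 d replicate 1 lay within the vehicle range. The differences were -0.60 ± 0.19 and -1.0 ± 0.18.

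Atg10, which helps to join Atg12 to Atg5 when autophagosomes form, is the shortest member. Its vehicle arrays at 21 d ran from 6.78 through 7.20 to 7.32, and the treated arrays read 6.99, 5.83, 6.24, 6.24 and 6.90. The vehicle arrays of 90 d ran from 7.09 through 7.31 to 7.37 and the treated arrays from 5.23 through 6.21 to 7.07. At 90 d all treated livers lay below the vehicle livers, replicate 6 by a narrow margin, while at 21 d replicates 1 and 5 lay within the vehicle range. The differences were -0.71 ± 0.23 and -1.0 ± 0.21.

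Tmtc2, an endoplasmic reticulum protein that adds mannose to cadherins, and Arhgap6, a GTPase-activating protein, had their larger difference at 21 d. Tmtc2 in vehicle arrays at 21 d ran from 7.07 through 7.42 to 7.62, and the treated arrays read 6.64, 5.97, 6.20, 6.57 and 6.83, all below. At 90 d the vehicle arrays of Tmtc2 ran from 6.92 through 7.28 to 7.55 and the treated arrays from 6.37 through 6.99 to 7.19, with 2 of 6 below the vehicle range. Its differences were -0.95 ± 0.15 and -0.36 ± 0.15, and the mean of its 2 probe sets gave -0.37 at 21 d.

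Arhgap6 in vehicle arrays at 21 d ran from 7.56 through 8.35 to 8.67, and the treated arrays read 7.30, 6.76, 6.78, 7.10 and 8.23. At 90 d its vehicle arrays ran from 7.40 through 7.77 to 8.0 and its treated arrays from 6.85 through 7.13 to 7.45. Treated replicate 5 at 21 d was the only treated liver of that time inside the vehicle range. The differences were -0.98 ± 0.22 and -0.58 ± 0.21, and all 3 probe sets of Arhgap6 were lower at both times.

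Trhde, an ectoenzyme that breaks down thyrotropin-releasing hormone, had treated arrays within the vehicle range at 21 d and mostly below it at 90 d. At 21 d its vehicle arrays ran from 3.35 through 3.64 to 4.10 and the treated arrays read 3.38, 3.45, 3.73, 3.53 and 3.50. At 90 d the vehicle arrays ran from 3.74 through 4.18 to 5.03 and the treated arrays from 2.96 through 3.44 to 3.79. The differences were -0.17 ± 0.18 and -0.88 ± 0.17. The vehicle livers themselves were 0.54 ± 0.17 higher at 90 d than at 21 d for Trhde, so the 90 d difference was measured against a higher control level. The choice for a fall used these vehicle values, so no test is given. Trhde had a low mean level of 3.70.

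**Figure D2:**
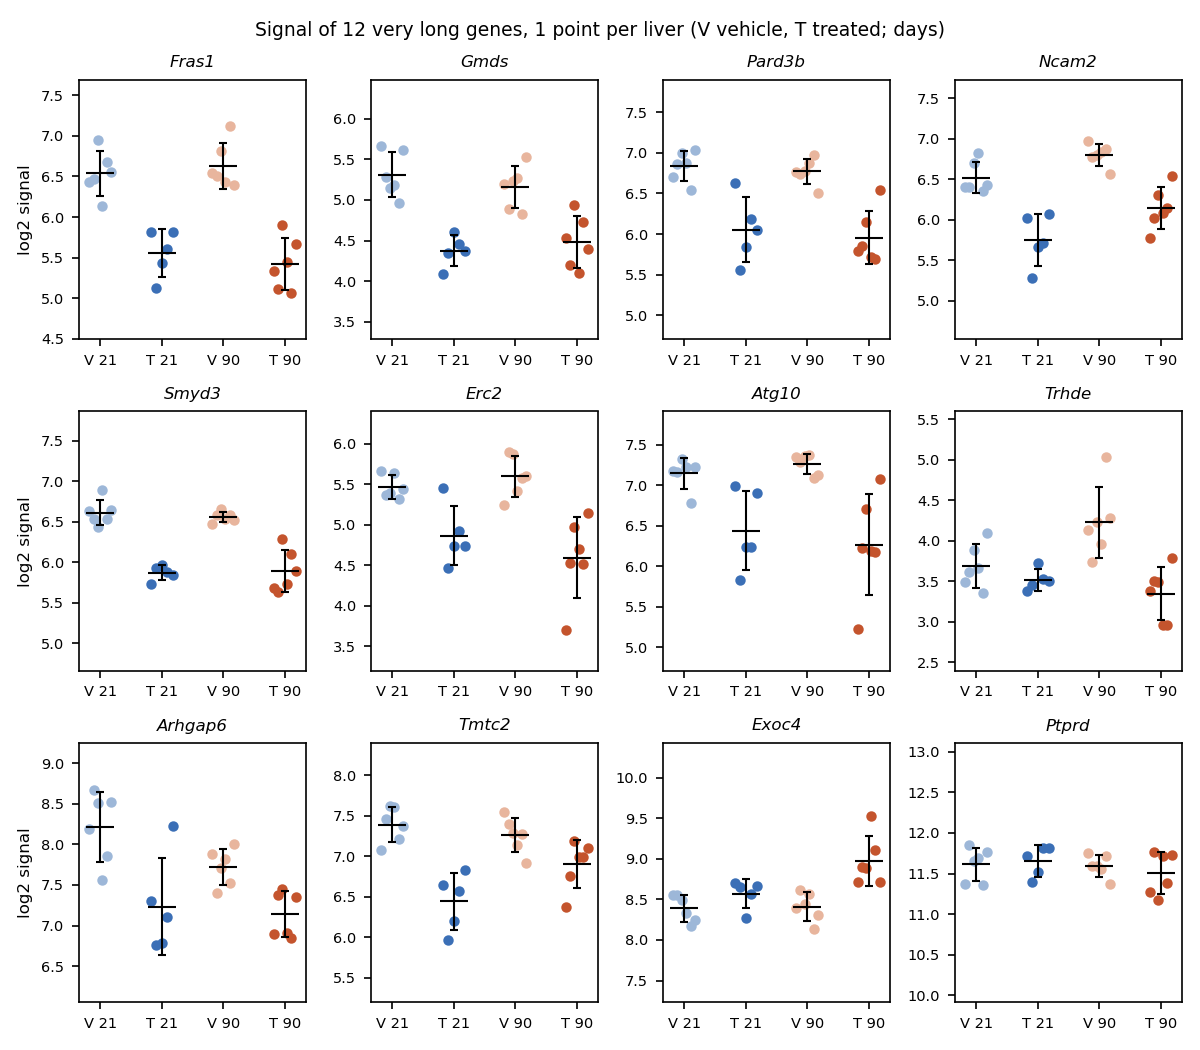
Log2 signal of 12 members in each liver (1 point per liver; V vehicle, T treated, at 21 and 90 d), with the group mean and SD; each panel covers the same log2 range. Fras1, Ncam2 and Smyd3 are separated at both times, Exoc4 is higher in all treated livers at 90 d, and Ptprd overlaps throughout.

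Of the 31 other members, 2 fell and none rose at 21 d, and 2 fell and 1 rose at 90 d. This is 6.45% lower at each time and 3.23% higher at 90 d, beside the 0.594%, 0.247% and 0.5% of all genes given above; the lower share rests on 2 genes, Smyd3 and Ncam2, that may have been listed for it. The median change of the 31 was -0.06 at 21 d and -0.08 at 90 d. At an unadjusted p under 0.05 there were 4 at 21 d, all lower, and 7 at 90 d, of which 6 were lower, beside 3026 (1491 lower) and 2196 (772 lower) of all 18193 genes. Of these 31, 16 had a mean change below 0 at both times, as had 4967 of the 18193 genes.

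Among the adhesion, polarity and scaffold genes outside those taken for their fall, 1 of 5 fell at each time. Ncam2, a cell adhesion molecule of the immunoglobulin family that spans 424 kb, read from 6.35 through 6.42 to 6.82 in vehicle livers at 21 d, and 6.02, 5.28, 5.66, 5.72 and 6.07 in treated livers. Its 90 d values ran from 6.56 through 6.82 to 6.97 in vehicle and from 5.77 through 6.11 to 6.54 in treated livers. All treated livers lay below all vehicle livers at both times, at 90 d by a narrow margin for replicate 6. Ncam2 fell by 0.77 ± 0.13 at 21 d and by 0.66 ± 0.13 at 90 d (adjusted p = 0.00948 and 0.0125, limma). One further probe set of Ncam2 differed by -0.63 and -0.60, and another by -0.03 and -0.18, so that the mean of its probe sets gave -0.47 at 21 d (adjusted p = 0.0287, limma).

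The other genes of this role moved little. Dmd, the longest member and best known from muscle, differed by 0.04 ± 0.09 and -0.18 ± 0.09 (adjusted p = 0.893 and 0.508, limma). Magi1, a junction scaffold, differed by -0.02 ± 0.08 and -0.12 ± 0.08, and Cdh13, a cadherin without a cytoplasmic domain, by -0.04 ± 0.09 and 0.01 ± 0.09. The 95% intervals of these 3 genes and of Pard3 lay within -0.36 and 0.23 at both times.

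None of the 3 receptor tyrosine phosphatases passed at either time by its representative probe set. Ptprd spans 2271 kb. It read from 11.36 through 11.67 to 11.85 in vehicle livers at 21 d and 11.72, 11.39, 11.52, 11.82 and 11.82 in treated livers. After 90 d it ran from 11.37 through 11.59 to 11.75 in vehicle and from 11.17 through 11.55 to 11.76 in treated livers. The groups overlapped at both times, with differences of 0.04 (95% interval -0.21 to 0.28) and -0.09 (-0.32 to 0.14).

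Ptprg, spanning 689 kb, read from 7.91 through 8.12 to 8.19 in vehicle livers at 21 d and 8.11, 6.90, 7.73, 7.96 and 8.59 in treated livers. By 90 d it ran from 7.98 through 8.11 to 8.39 in vehicle and from 6.75 through 7.65 to 8.03 in treated livers. Treated livers were more widely spread than vehicle livers, with replicate 2 lowest at 21 d and replicate 1 lowest at 90 d. The differences were -0.25 ± 0.21 and -0.55 ± 0.20 (adjusted p = 0.634 and 0.304, limma), and all 4 probe sets were lower at both times, 1 of which passed at 21 d. Ptprk differed by -0.11 ± 0.09 and 0.03 ± 0.09. All 7 of its probe sets were lower at 21 d, the lowest by -0.42, and 1 of the 7 passed.

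Among the 8 transcription and chromatin genes, Smyd3 fell at both times and no other member passed. Smyd3, a lysine methyltransferase that spans 566 kb, ran from 6.44 through 6.58 to 6.89 in vehicle livers at 21 d and read 5.73, 5.93, 5.97, 5.88 and 5.84 in treated livers. The 90 d values ran from 6.47 through 6.55 to 6.66 in vehicle and from 5.64 through 5.81 to 6.29 in treated livers. The groups were apart at both times. Smyd3 fell by 0.74 ± 0.10, or 1.67-fold, at 21 d and by 0.67 ± 0.09, or 1.59-fold, at 90 d (adjusted p = 0.000968 and 0.000497, limma). A second probe set, with a mean level of 4.06, differed by 0.06 and -0.04, and the mean of both gave -0.34 at 21 d (adjusted p = 0.014, limma).

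Zbtb20 spans 759 kb and had opposite signs at the 2 times. It ran from 10.41 through 10.56 to 10.97 in vehicle livers at 21 d and read 11.25, 10.56, 11.10, 11.05 and 10.64 in treated livers. At 90 d it ran from 10.37 through 10.70 to 11.05 in vehicle and from 10.00 through 10.40 to 10.78 in treated livers. The groups overlapped at both times. The differences were 0.31 ± 0.15 and -0.32 ± 0.15 (adjusted p = 0.328 and 0.458, limma), and the difference between them was -0.62 ± 0.21 (adjusted p = 0.492). All 9 probe sets were higher at 21 d and 7 of 9 lower at 90 d. The 21 d difference was 0.02 with the difference between the 3′ and 5′ Gapdh control probe sets (a measure of 3′ bias) as a covariate. Without the 5 arrays where that measure was above 0.9, the 21 d difference was -0.05, with replicate 2 alone left in the treated group.

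Esrrg, an orphan nuclear receptor, varied more among livers: it ran from 5.57 through 6.08 to 6.46 in vehicle livers at 21 d and read 6.05, 4.52, 5.42, 6.19 and 6.40 in treated livers. Its 90 d values ran from 5.88 through 6.54 to 7.09 in vehicle and from 5.57 through 6.25 to 6.44 in treated livers. Treated replicate 2 at 21 d stood lowest, and the groups overlapped at both times. The differences were -0.28 ± 0.26 and -0.35 ± 0.24 (adjusted p = 0.655 and 0.676, limma). The clock-associated nuclear receptor Rora and the transcription factors Foxp1, Nfia and Sox6, together with Auts2, differed by between -0.13 and 0.14 at 21 d and between -0.17 and 0.14 at 90 d, and none passed.

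Of the 8 vesicle traffic genes apart from Atg10, Exoc4 alone passed, as higher at 90 d. Exoc4, a subunit of the exocyst that tethers secretory vesicles and spans 725 kb, ran from 8.17 through 8.41 to 8.56 in vehicle livers at 21 d and read 8.70, 8.65, 8.27, 8.57 and 8.67 in treated livers. After 90 d it ran from 8.13 through 8.42 to 8.62 in vehicle and from 8.71 through 8.89 to 9.53 in treated livers. All 6 treated livers at 90 d lay above all vehicle livers, beside 0.967% of all genes, with replicate 4 highest. Its change was 0.18 ± 0.13 at 21 d (adjusted p = 0.535) and a rise of 0.56 ± 0.12 at 90 d (adjusted p = 0.0286, limma). The 2 effects differed by 0.38 ± 0.17 (adjusted p = 0.502, limma). The other probe sets of Exoc4 differed by 0.46, 0.38, 0.10 and -0.04 at 90 d. The mean of its 5 probe sets gave 0.29 (adjusted p = 0.0164, limma). The call at 90 d was lost when any 1 of 7 arrays was left out (treated replicates 2, 4 and 5 and vehicle replicates 1, 3, 5 and 6), with adjusted p up to 0.0858, and in a fit of the 90 d groups alone (adjusted p = 0.0867).

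Exoc6b, another exocyst gene, ran from 5.61 through 5.89 to 6.06 in vehicle livers at 21 d and read 6.07, 5.53, 5.74, 5.65 and 5.85 in treated livers. By 90 d it ran from 5.81 through 5.96 to 6.09 in vehicle and from 5.31 through 5.75 to 5.98 in treated livers. The groups overlapped, with differences of -0.12 ± 0.11 and -0.23 ± 0.10 (adjusted p = 0.638 and 0.438, limma). The BEACH-domain genes Lrba and Nbea, the lipid transfer gene Vps13b, Trappc9, Tbc1d5 and the SNARE Vti1a differed by between -0.15 and 0.11 at 21 d and between -0.19 and -0.00 at 90 d.

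None of the 5 enzymes outside those taken for their fall passed. Dpyd, spanning 871 kb, ran from 13.13 through 13.34 to 13.41 in vehicle livers at 21 d and read 13.13, 12.35, 12.62, 12.98 and 13.15 in treated livers. The 90 d values ran from 13.05 through 13.32 to 13.46 in vehicle and from 12.71 through 12.83 to 13.23 in treated livers. At 21 d 3 of 5 and at 90 d 4 of 6 treated livers lay below all vehicle livers. The differences were -0.45 ± 0.12 and -0.37 ± 0.12 (adjusted p = 0.0669 and 0.188, limma). Of the other 2 probe sets of Dpyd, 1 differed by -0.58 and -0.60 and the other by 0.02 and 0.05.

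Macrod2, which removes ADP-ribose from proteins and spans 1998 kb, ran from 6.73 through 6.90 to 7.08 in vehicle livers at 21 d and read 6.43, 6.74, 7.10, 6.59 and 6.49 in treated livers. At 90 d it ran from 6.87 through 6.95 to 7.11 in vehicle and from 6.72 through 6.84 to 7.16 in treated livers. The groups overlapped, and the differences were -0.23 ± 0.10 and -0.07 ± 0.09 (adjusted p = 0.242 and 0.851, limma).

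Cdkal1, a tRNA-modifying enzyme, ran from 6.80 through 7.11 to 7.22 in vehicle livers at 21 d and read 7.41, 6.56, 7.04, 6.82 and 7.07 in treated livers. Its 90 d values ran from 7.06 through 7.17 to 7.29 in vehicle and from 6.26 through 6.89 to 7.39 in treated livers. Treated livers lay on both sides of the vehicle range at both times, and the differences were -0.09 ± 0.16 and -0.25 ± 0.15 (adjusted p = 0.853 and 0.599, limma). Fto, an RNA demethylase, differed by 0.04 ± 0.06 and -0.06 ± 0.05, and Prkg1, a cGMP-dependent kinase, by -0.09 ± 0.09 and -0.06 ± 0.09.

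Rad51b was the most variable member. It ran from 6.90 through 7.61 to 8.26 in vehicle livers at 21 d and read 6.82, 8.26, 6.50, 6.38 and 7.48 in treated livers. After 90 d it ran from 6.55 through 7.17 to 7.96 in vehicle and from 6.52 through 7.43 to 7.74 in treated livers. The groups overlapped, and the differences were -0.50 ± 0.30 and 0.03 ± 0.29 (adjusted p = 0.459 and 0.987, limma). With the Gapdh covariate the 21 d difference was 0.13. Without the 5 arrays above 0.9 it was 0.67, a value that rests on treated replicate 2 alone. Lrp1b, a receptor of the LDL receptor family that spans 2058 kb, differed by 0.06 ± 0.08 and 0.11 ± 0.08. Lrp1b had a low mean level of 3.25, and its other probe sets had means of 3.20 and 2.79. A fall of Lrp1b could therefore be missed, and its values do not show that it was unchanged.

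No difference of effect between the 2 times was detected for the other members. None of the 31 other members, and 0% of all genes, passed for the difference between the effect at 90 d and that at 21 d in limma, with 2 of the 31 and 1572 of 18193 genes at an unadjusted p under 0.05. In vehicle livers, none of the 31 other members passed between 90 d and 21 d, while 0.011% of all genes were lower at 90 d and 0% higher. At an unadjusted p under 0.05 there were 4 of the 31 and 1170 of 18193 genes. The largest differences of the vehicle groups among the 39 members were 0.54 for Trhde and -0.49 ± 0.21 for Arhgap6. Both were taken for their fall, a choice that used the vehicle values, so no test is given for them.

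The RNA of treated livers at 21 d differed in the array's own control for 3′ bias. The Gapdh control probe sets read 1.00 ± 0.51 (SD, n = 5) higher at the 3′ than at the 5′ end in treated and 0.33 ± 0.13 (n = 6) in vehicle livers (exact permutation p = 0.0216, two-sided), and 0.53 ± 0.40 and 0.50 ± 0.15 at 90 d (exact permutation p = 0.909). Of the 5 arrays above 0.9, 4 were treated at 21 d and 1 was treated replicate 6 at 90 d. The vehicle arrays of 21 d lay between 0.09 and 0.49, and only treated replicate 2, at 0.14, lay within that range. The covariate and treatment thus cannot be fully told apart at 21 d, and the 21 d changes with the covariate lean on that liver. With this difference as a covariate, the change at 21 d was -1.07 for Ncam2 (adjusted p = 0.000831, limma), -0.64 for Smyd3 (adjusted p = 0.0152), -1.23 for Fras1 and -0.84 for Gmds. Atg10 went from -0.71 to -1.26 and Erc2 from -0.60 to -0.91. Dpyd and Ptprg then passed as lower at both times, Dpyd with -0.75 and -0.39 (adjusted p = 0.00312 and 0.0285, limma) and Ptprg with -0.87 and -0.58 (adjusted p = 0.0184 and 0.0225). Without the 5 arrays, only replicate 2 is left in the treated group at 21 d, which is then assumed to vary like the other groups; Smyd3 differed by -0.68 (adjusted p = 0.0938), Ncam2 by -1.24 (adjusted p = 0.00581) and Esrrg by -1.48 (adjusted p = 0.0309, limma).

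Beyond the members, 860 further genes spanned 200 kb or more, without Fhit and Wwox. Some members had been listed because they fell, so these 860 are what remained after part of the falling long genes was taken out. At 21 d, 17 of them fell and 2 rose (1.98% and 0.233%), and at 90 d 11 fell and 5 rose (1.28% and 0.581%). Of the 17131 genes under 200 kb, 0.479% fell and 0.601% rose at 21 d, and 0.14% fell and 0.496% rose at 90 d. The lower share of the long genes was thus 4.13 times that of shorter genes at 21 d and 9.13 times at 90 d, while their median changes, -0.04 and 0.00, stayed near 0. Leaving out 1 array at a time, this ratio ran from 1.75 to 7.56 at 21 d and from 6.29 to 11.7 at 90 d. At 21 d it was 13.6 with the Gapdh covariate, 10.3 in a fit of the compared groups alone, 2.85 without the arrays over the Gapdh limit and 2.76 among genes with a mean of 6 or more. At 90 d it was 4.6 in a fit of the compared groups alone, 5.93 without the arrays over the limit and 12.9 among genes with a mean of 6 or more.

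The counts behind these shares depended on single livers. At 21 d, 38 long genes fell without treated replicate 2, and between 8 and 11 without treated replicates 1, 3 or 4 or vehicle replicates 2, 3, 4 or 5 of 21 d. At 90 d, 21 fell without treated replicate 3 and 18 without treated replicate 6, and between 4 and 7 without any 1 of the other treated or the vehicle arrays of 90 d or vehicle replicates 1, 2, 3 or 6 of 21 d. The count of rising genes at 21 d was 19 without treated replicate 2, between 4 and 8 without treated replicates 1, 3 or 6 or vehicle replicate 4 of 90 d, and 1 without treated replicates 1 or 4 or vehicle replicates 2, 3, 4 or 5 of 21 d. At 90 d it was 2 or 3 without treated replicates 1, 4 or 5 or vehicle replicates 2, 3, 5 or 6. With array medians made equal, 14 long genes fell and 4 rose at 21 d, and 7 fell and 5 rose at 90 d. Among the brighter genes, with a mean of 6 or more, 13 of 389 long genes fell at 21 d and 10 at 90 d (3.34% and 2.57%), beside 0.577% and 0.163% of 7971 genes under 50 kb. These counts are from the fit of all probe sets. In a fit of the brighter probe sets alone, 18 (4.63%) and 14 (3.6%) of the 389 fell. Of 10382 genes under 200 kb, 1.68% and 0.279% fell in that fit, which gave the ratios of 2.76 and 12.9 above.

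Gtdc1, Cpq, Pik3c2g, Rnls and Chchd6 were the 5 that fell at both times. Pik3c2g, a class II phosphoinositide 3-kinase, ran from 8.21 through 8.38 to 8.53 in vehicle livers at 21 d and read 7.91, 7.19, 7.62, 7.76 and 8.0 in treated livers. It fell by 0.69 ± 0.15 at 21 d and by 0.77 ± 0.14 at 90 d (adjusted p = 0.0321 and 0.0112, limma). Cpq, a carboxypeptidase, fell by 0.69 ± 0.15 and 0.75 ± 0.15 (adjusted p = 0.0325 and 0.0148), and Chchd6, of the mitochondrial inner membrane, by 0.55 ± 0.11 and 0.59 ± 0.10 (adjusted p = 0.0181 and 0.00683). Gtdc1 fell by 0.72 ± 0.12 and 0.53 ± 0.11, and Rnls by 0.64 ± 0.12 and 0.64 ± 0.11. All treated livers lay below all vehicle livers at both times for Pik3c2g, Cpq, Rnls and Gtdc1, which were named for passing. Of the 860 long genes, 3.14% were separated in that direction at 21 d and 0.93% at 90 d, beside 1.28% and 0.385% of all genes. At 21 d the calls of Cpq, Rnls and Chchd6 were lost with the Gapdh covariate (those of Pik3c2g and Gtdc1 were not), and again without the arrays over the Gapdh limit. At 90 d those of Cpq, Rnls and Gtdc1 ended when only the compared groups were fitted. With the mean of a gene's probe sets, the call of Cpq ended at 21 d and that of Gtdc1 at 90 d. Leaving out 1 array ended the call of Cpq for 8 arrays and of Pik3c2g for 6 at 21 d, of Chchd6 for 2 at 21 d (treated replicates 1 and 3), and of Gtdc1 for 5 at 90 d.

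Nubpl, which helps to assemble respiratory complex I, had the largest fall of these genes by the rule at 21 d, 0.90 ± 0.14 (adjusted p = 0.0049, limma), followed among the named by Fam172a with 0.66 ± 0.12 and Naaladl2 with 0.63 ± 0.12. None of these 3 passed at 90 d, with differences of -0.53, -0.48 and -0.46 (adjusted p = 0.0848, 0.0501 and 0.0573). At 21 d the calls of Nubpl and Naaladl2 ended with the Gapdh covariate, and those of all 3 without the arrays over the Gapdh limit. Carmil1, Scaper and Pola1, the last the catalytic subunit of DNA polymerase alpha, fell at 90 d by 0.75 ± 0.17, 0.60 ± 0.13 and 0.56 ± 0.13 (adjusted p = 0.0436, 0.032 and 0.0439). Leaving out 1 array ended the call for 18 of 23 arrays for Carmil1 and for Pola1, and for 7 for Scaper, and all 3 calls ended when only the compared groups were fitted.

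Long genes also rose. Mgat5, which branches N-glycans, rose 2.01-fold at 90 d (log2 1.01 ± 0.16, adjusted p = 0.00326, limma), from 6.78 through 7.10 to 7.68 in vehicle to 7.76 through 8.12 to 8.41 in treated livers. Mgmt, which removes alkyl groups from guanine and spans 234 kb, ran from 9.01 through 9.09 to 9.43 in vehicle and from 9.46 through 9.62 to 9.84 in treated livers at 90 d. All 6 treated livers lay above all vehicle livers for both genes, as they did for 5 of the 860 long genes and 0.967% of all genes. Mgmt rose by 0.50 ± 0.08 at 90 d (adjusted p = 0.00196) and differed by 0.32 ± 0.08 at 21 d (adjusted p = 0.0545). Gria3 rose by 0.52 ± 0.11 and Myo5b by 0.36 ± 0.08 at 90 d (adjusted p = 0.0292 and 0.0495), calls that ended on leaving out 6 and 20 of the 23 arrays and when only the compared groups were fitted. At 21 d, Snhg14 rose by 0.65 ± 0.15 and Lmo7 by 0.44 ± 0.08 (adjusted p = 0.0404 and 0.0149, limma), and both calls were lost with the Gapdh covariate. Snhg14 had a low mean level of 3.85.

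Over all genes by span, the share that fell at 21 d was 0.24% under 10 kb, 0.447% from 10 to 50 kb, 0.737% from 50 to 100 kb, 1.19% from 100 to 200 kb, 2.44% from 200 to 500 kb and 4.41% from 500 kb. The share that rose was between 0.143% and 0.683% in these classes, with no such order. At 90 d the share that fell was between 0.0923% and 0.298% in the 4 classes under 200 kb, 2.01% from 200 to 500 kb and 3.43% from 500 kb. The longest class holds most of the members, some taken for their fall. Without the members, Fhit and Wwox its share was 1.73% (3 of 173 genes) at 21 d and 0.578% (1 of 173) at 90 d, as many as rose at 90 d, and that of the 200 to 500 kb class was 2.04% and 1.46%. Taking out genes listed for their fall lowers these shares in itself. The remainder therefore cannot tell whether genes of the longest class fell more often than they rose. The order at 21 d depended on the fit. With the Gapdh covariate, 0.0923%, 0.062% and 0.13% of all genes fell in the classes under 100 kb, with no steady rise. In the classes from 100 kb up the shares were then 0.447%, 2.01% and 4.9%, members included.

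**Figure D3:**
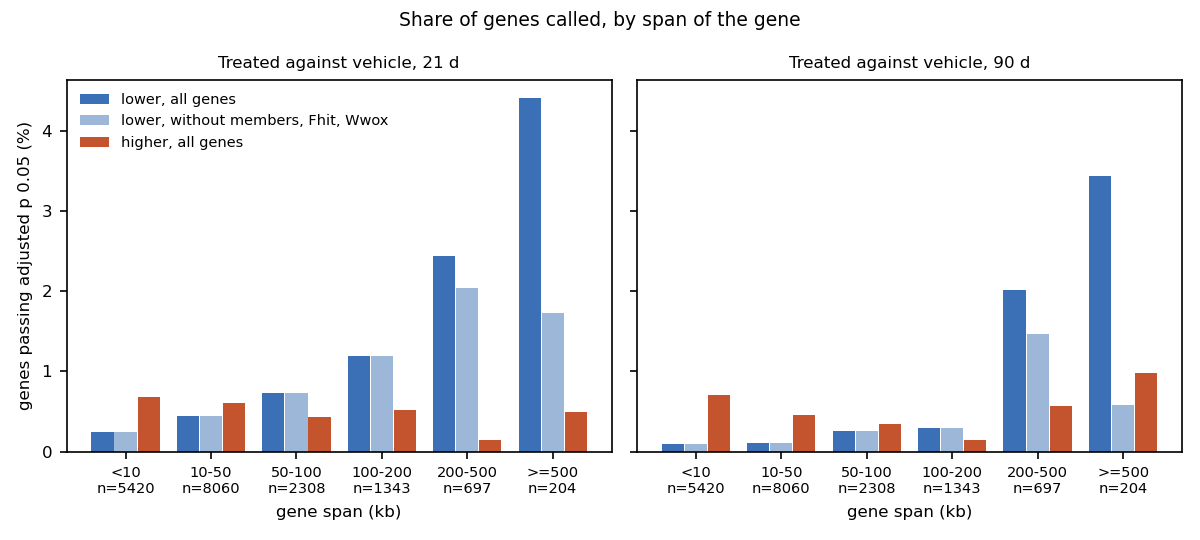
Percent of genes that passed as lower (blue; light blue without the members, Fhit and Wwox) or higher (orange) by gene span, at 21 d (left) and 90 d (right), with the number of genes in each class. In this fit, without the Gapdh covariate, the share that fell rises from 0.24% to 4.41% across the classes at 21 d with the members included. The light bars of the longest class are lower, at 1.73% and 0.578%. They leave out genes listed for their fall, which lowers them in itself.

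The livers differed in how far the 8 members taken for their fall lay below the vehicle mean of their time. Their median deviation at 21 d was -0.51, -1.30, -0.95, -0.83 and -0.64 in treated replicates 1 to 5, and between -0.32 and 0.19 in vehicle livers. At 90 d it was -0.94, -0.94, -0.59, -1.06, -1.08 and -0.41 in treated replicates 1 to 6, and between -0.08 and 0.05 in vehicle livers. Replicate 2 was lowest at 21 d, and replicates 3 and 6 were nearest to the vehicle livers at 90 d. Of these 8, Fras1, Pard3b, Erc2, Atg10, Tmtc2 and Arhgap6 had their lowest treated value of 21 d in replicate 2, and Gmds and Trhde in replicate 1. Ncam2, Dpyd and Ptprg were lowest in replicate 2 as well, and Smyd3 in replicate 1.

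Cdkn1a, the p53 target that encodes p21, stood apart in the same livers. It read 8.98, 10.26, 9.59, 9.35 and 8.95 in treated livers at 21 d and 10.89, 10.69, 9.01, 11.79, 10.67 and 9.15 at 90 d, against 6.41 to 7.27 in vehicle livers. Replicate 2 was the highest at 21 d, and replicates 3 and 6 were the lowest at 90 d. Replicate 2 was also the treated liver of 21 d with the lowest Gapdh 3′ minus 5′ difference, 0.14 against 1.02 to 1.45 in the other 4, and the part of either measure in the spread of the members was not tested.

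The other long genes also differed between livers. Of the 389 brighter ones, between 4.63% and 12.9% lay more than 0.5 below the vehicle mean in treated livers at 21 d and between 2.31% and 18.5% at 90 d, against at most 1.03% and 1.54% in vehicle livers. The highest shares were those of replicate 2 at 21 d and replicate 1 at 90 d, and the lowest at 90 d those of replicates 3 and 6. In the same livers the share of genes under 50 kb that lay as far below ran from 2.53% to 4.73% at 21 d and from 1.28% to 4.93% at 90 d. Long genes also lay more than 0.5 above the vehicle mean, between 1.54% and 5.91% of the 389 in treated livers at 21 d and between 1.54% and 4.88% at 90 d, against at most 2.57% and 1.03% in vehicle livers. More of them lay above than below in replicate 1 at 21 d (5.91% and 4.63%) and in replicates 3 and 6 at 90 d (3.86% above in each, 2.57% and 2.31% below). This was not particular to long genes. Of the genes under 50 kb, between 2.48% and 7.26% lay as far above in treated livers at 21 d. At 90 d it was between 2.25% and 6.03%. They too lay more often above than below in replicate 1 at 21 d (4.88% and 4.73%). In replicates 3 and 6 at 90 d, 4.47% and 3.75% lay above, 1.28% and 2.25% below.

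**Figure D4:**
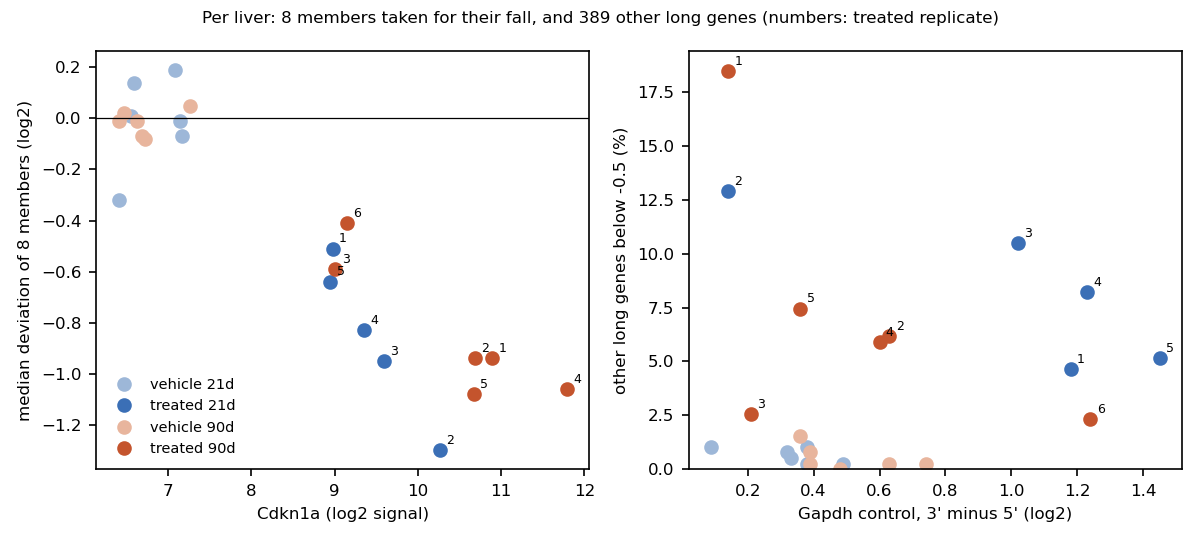
Left, the median deviation of the 8 members taken for their fall from the vehicle mean of the same time (log2) against the Cdkn1a signal of the same liver; right, the percent of 389 other long genes more than 0.5 below the vehicle mean against the Gapdh 3′ minus 5′ difference; numbers are treated replicates. Replicate 2 at 21 d combines the lowest member deviation, -1.30, with a Cdkn1a signal of 10.26 and a Gapdh difference of 0.14.

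Among genes that help polymerase II through a gene or repair it when stalled, Tcea3 rose at both times and Hexim1 fell at 21 d. Of 34 listed elongation and transcription-coupled repair genes, 31 were measured, with a median change of 0.00 at 21 d and -0.05 at 90 d. At 21 d 1 rose and 1 fell, or 3.23% each, beside 0.577% and 0.594% of all genes. At 90 d 1 rose (3.23%) and none fell, beside 0.5% and 0.247% of all genes. Each of these shares rests on 1 gene, and the calls of Tcea3 lay just under the limit of 0.05. Tcea3, a TFIIS elongation factor, rose by 0.32 ± 0.08 at 21 d and by 0.33 ± 0.08 at 90 d (adjusted p = 0.049 and 0.0489, limma). Hexim1, an inhibitor of the elongation kinase P-TEFb, fell by 0.34 ± 0.08 at 21 d (adjusted p = 0.0379). At an unadjusted p under 0.05 there were 10 of the 31 at 21 d, 5 of them lower, and 3 at 90 d, beside the 3026 and 2196 of all 18193 genes.

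Markers of liver cell types gave the tissue context of these bulk measurements, in which fewer cells of a type and less RNA per cell cannot be told apart. No gene of the 8 marker lists passed at either time. The summed level of 5 of 5 hepatocyte markers lay between 17.29 and 17.38 in every liver (log2). That of 7 stellate cell and fibroblast markers ran from 12.59 to 12.92 in treated and from 12.59 to 13.16 in vehicle livers at 21 d, and from 12.47 to 13.17 and 12.42 to 12.98 at 90 d. Endothelial markers, 5 of 5 measured, ran from 11.41 to 11.79 and 11.43 to 11.88 at 21 d, and from 11.69 to 12.15 and 11.44 to 11.92 at 90 d. The 5 muscle markers ran from 8.14 to 8.58 in treated and from 8.41 to 10.32 in vehicle livers at 21 d. At 90 d they ran from 8.26 to 13.46 in treated and from 7.83 to 11.21 in vehicle livers, and the groups overlapped at both times. Neuron and glia markers, of which 2 of 4 were measured, had mean levels of 3.18 and 8.73. Their sum thus rests almost wholly on the brighter gene. These markers ran from 8.22 to 8.82 in treated and from 8.85 to 9.19 in vehicle livers at 21 d. They were lower in every treated liver, as were 1.28% of all genes. At 90 d they ran from 8.12 to 8.93 and from 8.70 to 8.96, and the groups overlapped. Their part in the changes of Ncam2 and Erc2, genes best known from neurons, was not tested.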

How the data were processed

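The labels describe 3′ expression arrays (Affymetrix, mouse genome), 1 for each of 23 livers. The deposited unit is log2, a base inferred here from RMA and from values between 2.23 and 15.41. Partek and RMA are listed in the submitters' processing notes, with versions not given in the sources used here. Array medians lay between 5.53 and 5.61, so a change shared by every gene cannot be seen. The number of arrays limits precision.

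Control probe sets (64 of 45101) were dropped; 34945 of the rest had 1 gene, 932 several and 9160 none. Each gene was represented by its brightest 1-gene probe set. Spans came from RefSeq (GRCm38.p6) through Entrez identifiers; no build is named for the arrays. Group means were fitted with limma 3.58.1 in R 4.3.3 (lmFit, eBayes, 19 residual degrees of freedom) and adjusted with the Benjamini-Hochberg method over 45037 probe sets; the fit was tested on simulated data. Summaries used Python 3.11.15 and pandas 2.3.3. The limma p-values set differences between group means against the spread between mice.

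The members and lists were chosen with earlier results of these data known. Named were the members taken for their fall (among the 12 largest falls of the earlier account, or named there), passing members, the 8 further members with the largest change, and of the other long genes the 8 largest falls and 4 largest rises that passed at each time. Ptprd, shown array by array, was chosen after its values were seen. Alternatives left out single arrays, added the Gapdh difference or replicate number, or changed the probe set summary, filter, scaling, span limit or groups fitted. Classes by protein length were not used here.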

Additional observations from a re-analysis of the deposited data

Results flagged for a closer look

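In 2 of 76 groups of values checked for the 19 named members, the extreme array stood farther from its neighbours than Dixon's 95% limit; chance alone flags about 1 group in 20. Atg10 read 6.78 in vehicle replicate 5 at 21 d, against 7.16 to 7.32 in the other vehicle livers. Ptprg read 7.91 in the same liver, against 8.11 to 8.19 in the others.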

How the results depend on the processing

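Leaving out 1 array at a time, the lower calls among the 31 other members ran from 2 to 3 at 21 d and from 2 to 2 at 90 d, and the higher calls from 0 to 0 and from 0 to 1. Among the 860 other long genes, the lower calls ran from 8 to 38 and from 4 to 21, and the higher calls from 1 to 19 and from 2 to 7. With the Gapdh covariate, 4 other members were lower at 21 d and 4 at 90 d, 1 other long gene was higher at 21 d and 24 were lower at 90 d. Without the 5 arrays over the Gapdh limit, 4 and 5 other members were lower, other long genes numbered 9 lower and 4 higher at 21 d, and 28 lower and 8 higher at 90 d. In fits of the compared groups alone, 0 other members were higher at 90 d, and 3 other long genes were lower and 2 higher. With array medians made equal, 4 other long genes were higher at 21 d and 7 lower at 90 d. A mean of 6 or more gave 7 higher at 21 d. Spans of 100 kb or more gave 33 lower and 9 higher at 21 d; spans of 500 kb or more gave 3 lower and 1 higher at 21 d, and 1 lower and 1 higher at 90 d. The cause of these shifts was not tested, apart from fewer samples or genes where the setting leaves some out. No result changed direction where it was called.

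The labels number the mice within each group alike, but same-numbered mice of treated and vehicle groups did not deviate together: their correlations ran from -0.36 to -0.14 and in 0 of 11 pairs was a mouse's own number its best match. With the replicate number as a block, other long genes numbered 8 lower and 1 higher at 21 d and 4 lower and 3 higher at 90 d, and the calls of Smyd3 and Ncam2 held. The calls of Cpq, Pik3c2g, Chchd6 and Snhg14 at 21 d and of Cpq, Gtdc1, Carmil1, Pola1 and Myo5b at 90 d ended under the block.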
